A study of Mus musculus with 12 samples.

Results

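ATF4 is the transcription factor through which cells answer a shortage of amino acids or an overload of the endoplasmic reticulum, and the genes described here are those of its axis: the factors Atf4, Atf5 and Ddit3, the feedback gene Trib3, and the enzymes Asns, Phgdh, Psat1, Psph, Shmt2 and Mthfd2 that make asparagine, serine, glycine and folate-bound carbon units. The 10 genes were taken by name from a deposited expression table of 37750 rows. Each had a row of its own name and none lay in a row that joins several names. RNA came from mice of a 129 x C57BL/6 background labelled Ad/NICD, also written Ad/N1ICD, which carry the intracellular domain of Notch1, the active form of that receptor, in adipocytes. White adipose tissue (WAT, 4 libraries) came from animals 3 weeks old, and liposarcoma (LPS, 8 libraries), a malignant tumour of the fat lineage, from animals 9 to 12 months old (2 libraries each at 9 and 10 months, 3 at 11 months and 1 at 12 months). Both groups carry the transgene, so the comparison has no group without it, and the promoter that drives it is not named in the labels. Tissue and age change together between the groups and cannot be told apart.

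When kinases that sense stress phosphorylate the translation factor eIF2, most protein synthesis slows while translation of the Atf4 mRNA rises, so the Atf4 transcript is not a measure of the protein. ATF4 then switches on amino acid transporters, aminoacyl-tRNA synthetases and the enzymes of serine and asparagine synthesis, mostly through C/EBP-ATF response elements near the start of its target genes. PHGDH, PSAT1 and PSPH carry out the successive steps from a glycolytic intermediate to serine, SHMT2 turns serine into glycine in the mitochondrion, and MTHFD2 oxidises the folate-bound carbon unit that this releases. Oxidation of folate-bound carbon units also yields NADPH, which fat cells spend on fatty acid synthesis.

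The promoters of Asns and Trib3 are shown because they were the only ones among the members' that hold the core letters of the response element. TGATGNAA, where N is any base, was searched on both strands of RefSeq promoters (build GRCm38.p6, 250 bases before to 50 after the start), which were found for all 10 genes. Of 27025 genes in that table, 4.51% had a match in at least 1 promoter. The match, in capitals, lies on the gene's own strand in Asns, from 23 to 16 bases before the RefSeq start, and on the opposite strand in Trib3, from base 15 to base 22 counted from the RefSeq start. The GENCODE M21 starts differ. Asns starts at 7693254 there, so its match (7693225 to 7693232) lies inside the gene. Trib3 starts at 152344032 there, so its match (152344039 to 152344046) lies before the gene. Asns is shown up to its start and Trib3 up to the end of its match.
Asns, chr6:7693210-7693459, minus strand: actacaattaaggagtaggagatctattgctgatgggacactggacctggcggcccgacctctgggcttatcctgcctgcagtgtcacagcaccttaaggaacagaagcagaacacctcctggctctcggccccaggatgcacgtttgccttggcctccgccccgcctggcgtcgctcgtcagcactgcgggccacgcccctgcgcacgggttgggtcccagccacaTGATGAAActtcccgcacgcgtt
Trib3, chr2:152344039-152344310, minus strand: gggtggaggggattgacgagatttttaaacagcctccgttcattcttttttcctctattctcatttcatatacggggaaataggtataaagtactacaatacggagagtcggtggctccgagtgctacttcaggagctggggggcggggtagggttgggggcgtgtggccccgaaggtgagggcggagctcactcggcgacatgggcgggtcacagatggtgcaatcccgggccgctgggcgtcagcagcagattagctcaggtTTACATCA
A match of letters is a description of the window and not evidence of binding. The promoters of the other 8 genes hold no match in these windows.

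Values are FPKM (fragments per kilobase, relative to library depth), so levels of different genes can be set side by side. The depth is not stated. Judged from the lowest values of long single-transcript genes, 1 fragment on a 2 kb transcript was worth 0.0164 FPKM in the deepest library (WAT 1) and 0.0448 FPKM in the shallowest (LPS 1), a 2.74-fold range of depth. LPS 5 stood apart: it needed a scale factor of 0.801 by median ratio, against 0.969 to 1.06 in the other 11 libraries. The 6 adipocyte markers (Adipoq, Plin1, Cfd, Lep, Cidec, Retn) gave sums of 3957 to 4873 FPKM across WAT but 0.990 to 35.5 FPKM across LPS, with Lep listed at 0 in LPS 3 and LPS 4 and Retn listed at 0 in LPS 6 and LPS 8. The sums of 6 pericyte markers were 151 to 171 and 3354 to 7468 FPKM, those of 6 lymphocyte markers 112 to 224 and 10.1 to 60.1 FPKM, and those of 6 macrophage markers 114 to 195 and 98.4 to 357 FPKM. Sums of 5 fibroblast markers, all called lower, were 842 to 1460 FPKM across WAT and 15.7 to 345 FPKM across LPS. Of these, Dpp4 met the filter of 1 FPKM in 4 libraries through WAT, where it is high. Sums of 6 endothelial markers were 168 to 217 and 206 to 379 FPKM, but single markers went both ways. Pecam1, Cdh5, Kdr and Tek (4 markers) were called lower, and Emcn and Esam (2 markers) higher. In bulk tissue, fewer cells of a type and less RNA per cell cannot be told apart, and the part of these shifts in the results below was not tested.

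In the tumours 6 of the 10 genes were lower and 1 was higher, while Atf4 itself was not called. Phgdh, Atf5, Asns, Psph, Psat1 and Trib3 fell and Shmt2 rose (limma on log2(FPKM + 1), adjusted p below 0.05 over 14821 rows). Over all rows tested, 27.0% were called lower and 18.9% higher. The share of calls that were lower depended on scaling, at 58.8% on the deposited scale and 45.9% once quantiles were equalised. That scaling shifted the median log2 difference of all rows from -0.05 to 0.10. The median log2 difference of the 10 genes was -0.90. In 5 genes (Atf5, Asns, Phgdh, Psph and Shmt2) the LPS and WAT values did not overlap, which held for 32.6% of all rows.

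**Figure D1:**
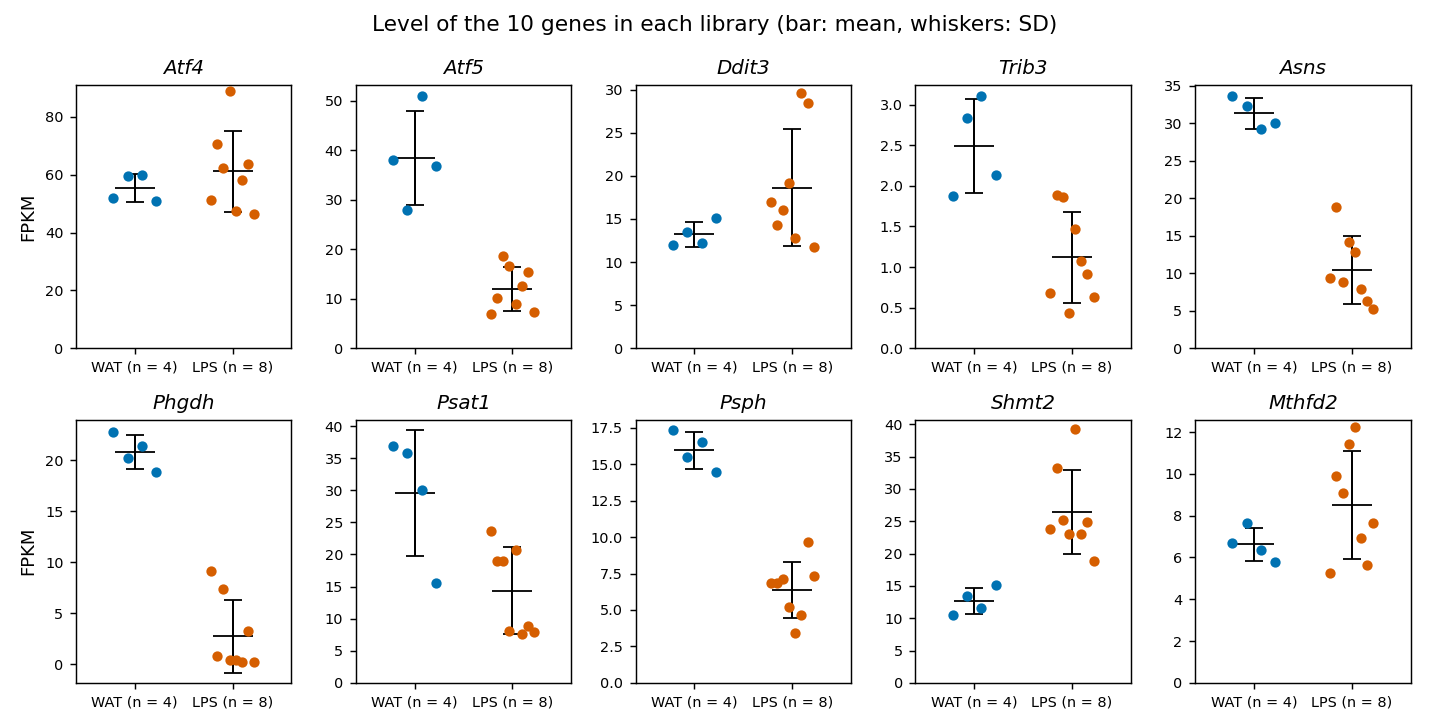
FPKM of each gene in each of the 4 WAT and 8 LPS libraries (points), with the group mean (bar) and SD (whiskers); each panel has its own axis. Phgdh reached 22.8 FPKM in WAT and at most 9.17 FPKM in LPS, whereas the ranges of Atf4 overlap.

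Atf4 (chromosome 15, 80255184 to 80257540, GRCm38) was the most abundant of the 10 transcripts in both groups. It stood at 51.9, 59.5, 59.9 and 50.8 FPKM across WAT 1 to WAT 4, and from 46.5 through a median of 60.4 to 88.9 FPKM in LPS. The groups overlapped, with 4 tumours above and 2 below all WAT libraries, LPS 4 being the highest and LPS 8 the lowest. Mean levels of 55.5 ± 4.86 and 61.2 ± 14.1 FPKM (SD over 4 and 8 libraries) gave a log2 difference of 0.11 ± 0.16 (SE; limma adjusted p = 0.606).

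Atf5, a related factor that also answers mitochondrial stress, did not follow Atf4. It stood at 38.0, 28.0, 51.0 and 36.8 FPKM across WAT 1 to WAT 4 and from 6.85 through a median of 11.4 to 18.5 FPKM in LPS. Every tumour lay below every WAT library. The log2 difference was -1.64 ± 0.26 (SE; limma adjusted p = 0.000185), and the WAT mean was 3.20 times the LPS mean. In GENCODE M21 the first part of Atf5 (minus strand of chromosome 7) overlaps Nup62 by 571 bases and Il4i1 by 272 bases on the plus strand. The deposited locus of the Atf5 row is wider than the gene, 44812257 to 44840809, and also overlaps Tbc1d17. The part of these neighbours in the Atf5 row was not tested. The libraries were made with a stranded kit, but no source used here says whether the counting used strand.

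Ddit3 encodes CHOP, a factor downstream of ATF4 that is tied to prolonged stress and restrains fat cell differentiation. It stood at 11.9, 13.5, 12.3 and 15.2 FPKM across WAT 1 to WAT 4 and from 11.7 through a median of 16.5 to 29.7 FPKM in LPS. LPS 6 and LPS 7, at 29.7 and 28.4 FPKM, stood above the other tumours, none of which passed 19.2 FPKM. The log2 difference of 0.40 ± 0.23 did not pass the test (SE; limma adjusted p = 0.170). With array quality weights, which give less weight to libraries that fit poorly, it passed at adjusted p = 0.0213. The 3′ ends of Ddit3 and of Mars, on opposite strands of chromosome 10, overlap by 68 bases, and Mars was called lower, at 25.2 ± 2.69 in WAT and 20.1 ± 2.50 FPKM in LPS (SD over 4 and 8 libraries). The deposited locus of the Ddit3 row is wider than the gene, 127289696 to 127311786, and also overlaps Gm4189. The part of these neighbours in the Ddit3 row was not tested.

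Trib3, a pseudokinase induced by ATF4 and CHOP that restrains ATF4 and insulin signalling to AKT, had the lowest mean of the 10 in both groups, although the LPS median of Phgdh, 0.671 FPKM, was lower than its own. It stood at 1.87, 2.83, 3.11 and 2.14 FPKM across WAT 1 to WAT 4 and from 0.432 through a median of 0.992 to 1.89 FPKM in LPS. All tumours but LPS 2 lay below every WAT library, and LPS 2 exceeded the lowest of them, WAT 1, by a small margin. The log2 difference was -0.75 ± 0.21 (SE; limma adjusted p = 0.0106). Since the values lie near 1 FPKM, the added pseudocount of 1 compresses this difference: it was -1.20 with a pseudocount of 0.1. After quantile normalization it was -0.50 and no longer passed (adjusted p = 0.0784).

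Asns encodes asparagine synthetase, which makes asparagine from aspartate with glutamine as the nitrogen donor (chromosome 6, 7675169 to 7693254). It stood at 33.7, 32.3, 29.3 and 30.0 FPKM across WAT 1 to WAT 4, a spread of 6.52% of the mean, and from 5.19 through a median of 9.12 to 18.8 FPKM in LPS. LPS 2 was the highest tumour and LPS 8 the lowest, and no tumour reached the WAT range. The log2 difference was -1.59 ± 0.27 (SE; limma adjusted p = 0.000284), and the WAT mean was 3.00 times the LPS mean. In the 8 tumours the coefficient of variation was 43.6%.

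The serine synthesis enzymes were all lower in LPS, and Phgdh had the largest difference of the 10 genes. Phgdh, whose product catalyses the first step of the pathway (chromosome 3, 98313170 to 98339990), stood at 22.8, 20.2, 21.4 and 18.8 FPKM across WAT 1 to WAT 4. In the tumours it measured 9.17, 0.870, 7.41, 0.472, 0.465, 0.252, 3.29 and 0.250 FPKM in LPS 1 to LPS 8. LPS 1, LPS 3 and LPS 7 thus kept a level that the other 5 tumours did not, and even LPS 1 lay below every WAT library. The lowest values stood well above the worth of 1 fragment on a 2 kb transcript, 0.0248 FPKM in LPS 6 and 0.0262 FPKM in LPS 8. The mean fell from 20.8 ± 1.69 to 2.77 ± 3.58 FPKM (SD over 4 and 8 libraries), a log2 difference of -3.05 ± 0.58 (SE; limma adjusted p = 0.000802). Among the tumours only LPS 1, LPS 3 and LPS 7 reached 1 FPKM. Phgdh thus met the filter of 1 FPKM in 4 libraries through WAT, where it is high. With no filter on low values the limma adjusted p was 0.00155. The highest tumour held 36.6 times the level of the lowest, against at most 4.37 times in the other 9 genes.

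Psat1, the aminotransferase of the second step (chromosome 19, 15904678 to 15947337), stood at 36.9, 35.9, 30.1 and 15.6 FPKM across WAT 1 to WAT 4. In LPS it ran from 7.68 through a median of 13.9 to 23.7 FPKM. LPS 1, LPS 2, LPS 3 and LPS 5 lay between 18.9 and 23.7 FPKM, the remaining 4 tumours between 7.68 and 8.87 FPKM, and WAT 4 lay within the range of the tumours. The log2 difference of -1.06 ± 0.35 passed (SE; limma adjusted p = 0.0262), but not without WAT 1 (adjusted p = 0.0867), WAT 2 (adjusted p = 0.0824) or WAT 3 (adjusted p = 0.0680). It also missed the threshold by an exact permutation test per row (adjusted p = 0.0580), and over all alternatives its adjusted p ran from 0.00237 to 0.0867.

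Psph, the phosphatase that releases serine (chromosome 5, 129765558 to 129787252; its 5′ end overlaps Cct6a by 452 bases), stood at 17.4, 15.5, 16.5 and 14.5 FPKM across WAT 1 to WAT 4 and from 3.41 through a median of 6.83 to 9.67 FPKM in LPS. LPS 7 was the highest tumour and LPS 5 the lowest, and the groups did not overlap. The log2 difference was -1.24 ± 0.20 (SE; limma adjusted p = 0.000206). The tumours that were high in 1 enzyme of the pathway were not always high in the next: LPS 5 held 20.7 FPKM of Psat1 with 0.465 FPKM of Phgdh and 3.41 FPKM of Psph, while LPS 7 held 3.29 FPKM of Phgdh, 8.87 FPKM of Psat1 and 9.67 FPKM of Psph.

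**Figure D2:**
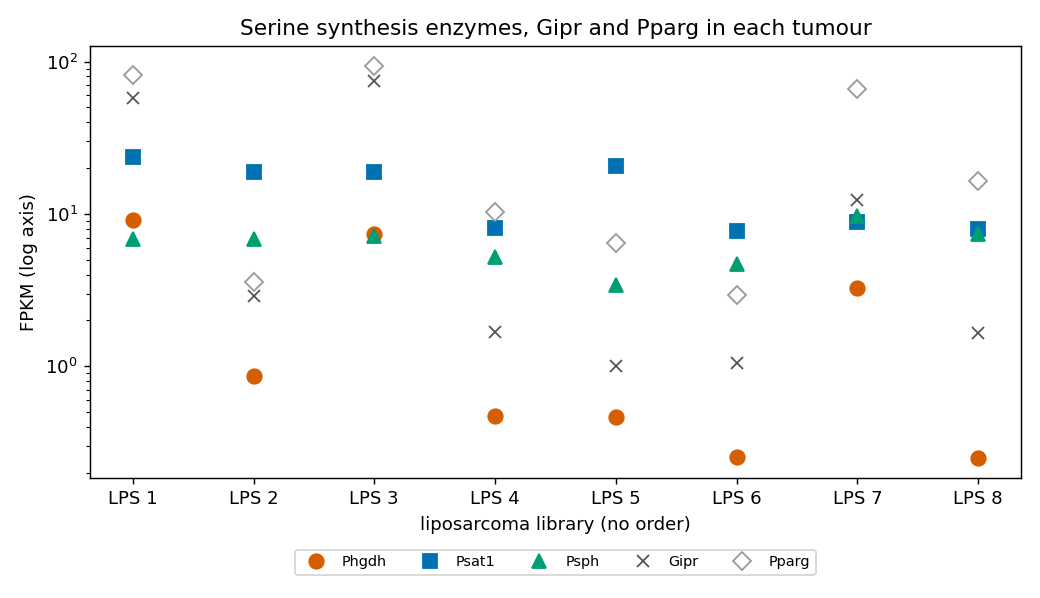
FPKM (log axis) of Phgdh, Psat1 and Psph in each of the 8 LPS libraries, with Gipr and Pparg, 2 genes outside the axis. Phgdh, Gipr and Pparg are highest in LPS 1, LPS 3 and LPS 7, whereas Psat1 is highest in LPS 1 and LPS 5.

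The genes most like Phgdh across the 8 tumours, by Pearson's r of log2(FPKM + 1) among 14161 rows of 1 name, were Gipr (r = 0.99), Gm7901 (r = 0.99) and Itpripl1 (r = 0.99). They were picked as the highest of all rows, so these values carry no test. Gipr, the receptor for an incretin hormone that acts on fat cells, measured 57.6, 74.6 and 12.3 FPKM in LPS 1, LPS 3 and LPS 7, while the remaining tumours held 1.00 to 2.88 FPKM. Pparg, which encodes the nuclear receptor that drives adipogenesis, was added after its values were seen: it measured 82.2, 94.2 and 66.5 FPKM in the same tumours and 2.93 to 16.4 FPKM elsewhere in LPS (r = 0.88, rho = 0.67). The summed adipocyte markers were 33.4, 3.71 and 3.79 FPKM in these tumours, 35.5 FPKM in LPS 5 and 0.990 to 1.68 FPKM in the remaining 4, and their part in the Phgdh level was not tested. Different genes made up the 2 largest sums, with Plin1 at 32.2 FPKM in LPS 1 and Cfd at 27.2 FPKM in LPS 5.

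Shmt2 was the 1 gene of the 10 that rose. Its product is the mitochondrial serine hydroxymethyltransferase. It stood at 10.5, 13.5, 11.6 and 15.1 FPKM across WAT 1 to WAT 4 and from 18.9 through a median of 24.3 to 39.3 FPKM in LPS, and every tumour exceeded every WAT library. LPS 5 was the highest and LPS 8 the lowest. The mean went from 12.7 ± 2.07 to 26.4 ± 6.56 FPKM (SD over 4 and 8 libraries), 2.09-fold, with a log2 difference of 0.99 ± 0.17 (SE; limma adjusted p = 0.000455).

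The Shmt2 row needs its neighbour beside it. The 3′ end of Shmt2 (chromosome 10, minus strand) overlaps that of Ndufa4l2 (plus strand) by 32 bases, 127517123 to 127517154, and the table gives both rows the same locus, 127514939 to 127522444. Ndufa4l2, an inhibitor of respiratory chain activity, lay at 7.78 ± 0.638 FPKM in WAT but at 352 ± 58.3 FPKM in LPS (SD over 4 and 8 libraries). Without strand, fragments in the shared bases cannot be told apart. Within LPS the highest Shmt2 (39.3 FPKM, LPS 5) came with the lowest Ndufa4l2 (271 FPKM), and the highest Ndufa4l2 (448 FPKM, LPS 6) with 23.1 FPKM of Shmt2. These values are as deposited. LPS 5 is the library with the scale factor of 0.801, so its place as the lowest in Ndufa4l2 depends on scaling. The part of Ndufa4l2 fragments in the Shmt2 row was not tested.

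Mthfd2, the mitochondrial dehydrogenase and cyclohydrolase that is abundant in dividing cells and low in most adult tissues, was not called. It stood at 6.71, 7.67, 6.37 and 5.79 FPKM across WAT 1 to WAT 4 and from 5.25 through a median of 8.36 to 12.2 FPKM in LPS. The groups overlapped, with 4 tumours above and 2 below all WAT libraries, and the log2 difference was 0.28 ± 0.20 (SE; limma adjusted p = 0.291).

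**Figure D3:**
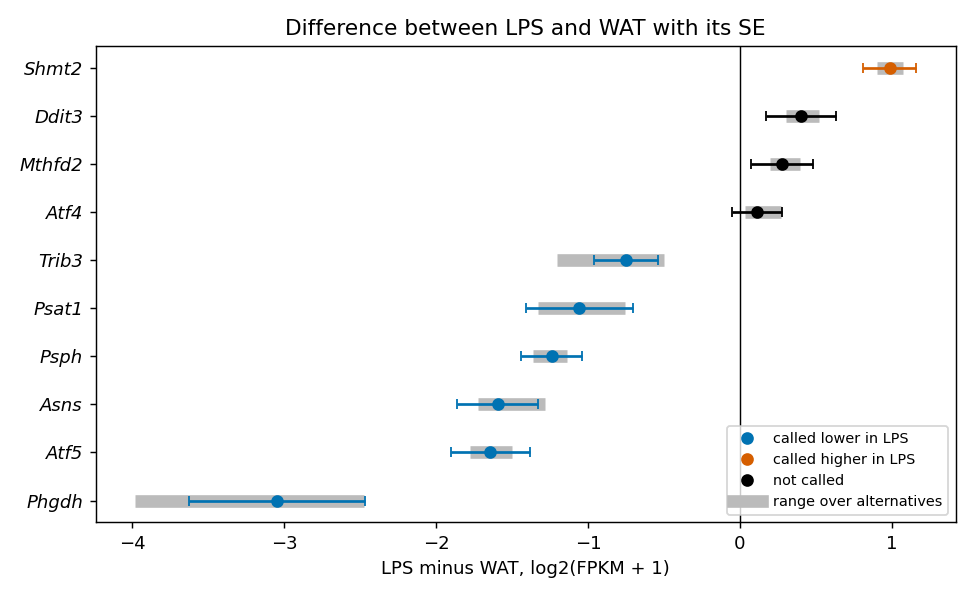
Difference between LPS and WAT in log2(FPKM + 1) for each gene (points, with the SE) and its lowest and highest value over the alternatives (grey). Phgdh lies lowest at -3.05 and Shmt2 highest at 0.99, and no grey range crosses 0.

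The Shmt2 transcript rose relative to that of its cytosolic paralogue Shmt1. Shmt1 stood at 9.67, 9.45, 11.0 and 17.1 FPKM across WAT 1 to WAT 4 and from 3.06 to 9.06 FPKM in LPS, a log2 difference of -0.97 ± 0.25 (SE; limma adjusted p = 0.00691). The log2 ratio of Shmt2 to Shmt1 within a library, with 0.1 FPKM added to both, was 0.13 ± 0.28 in WAT (SD, n = 4) and 2.26 ± 0.47 in LPS (SD, n = 8). The WAT libraries lay from -0.17 to 0.51 and the tumours from 1.65 to 3.01. The difference of 2.13 had an exact permutation p = 0.00202, the smallest that 4 against 8 libraries allow (two-sided; adjusted p = 0.00404 over 2 ratios). Every tumour lay above every WAT library in Shmt2 and below every one in Shmt1, so the ratio had to separate the groups. This p therefore adds no evidence to the results of the single genes. For Mthfd2 over Mthfd2l, its mitochondrial paralogue, the log2 ratio was 1.38 ± 0.11 in WAT and 1.68 ± 0.62 in LPS, and the difference of 0.30 did not pass (exact permutation p = 0.370). Mthfd2l itself lay at 2.48 ± 0.263 and 2.52 ± 0.482 FPKM (SD over 4 and 8 libraries).

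**Figure D4:**
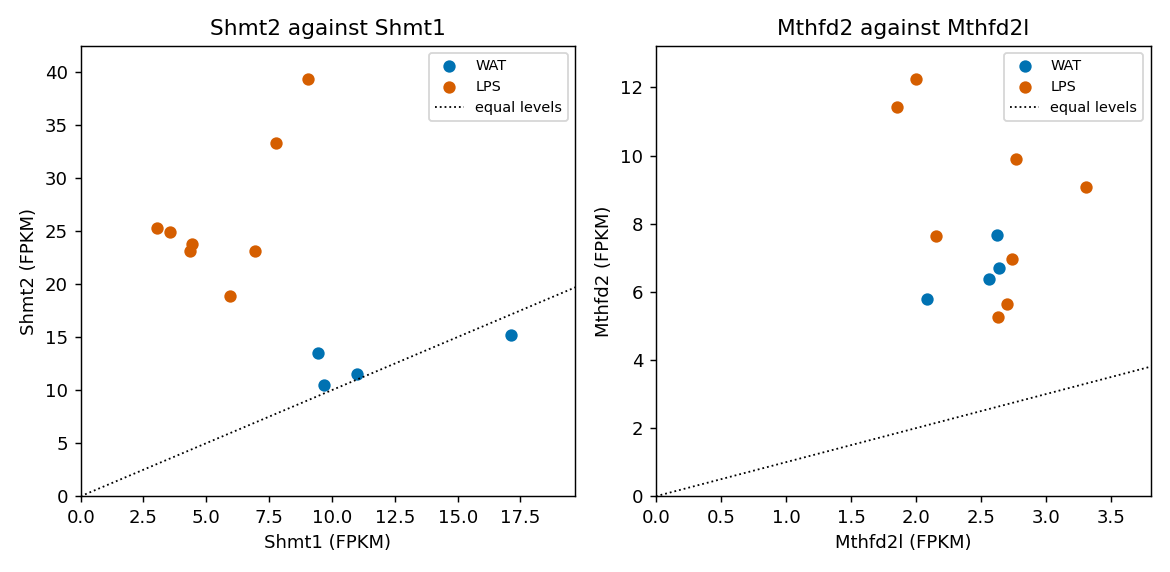
FPKM of Shmt2 against Shmt1 (left) and of Mthfd2 against Mthfd2l (right) in each library, with the line of equal levels dotted. The 4 WAT libraries lie near that line for Shmt2 and Shmt1, and the 8 LPS libraries lie above it.

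The order of the levels changed with tissue. By mean FPKM the order in WAT was Atf4, Atf5, Asns, Psat1, Phgdh, Psph, Ddit3, Shmt2, Mthfd2 and Trib3. The ranges of neighbours in that order overlapped, except those of Phgdh and Psph, of Shmt2 and Mthfd2, and of Mthfd2 and Trib3. In LPS the order was Atf4, Shmt2, Ddit3, Psat1, Atf5, Asns, Mthfd2, Psph, Phgdh and Trib3, so Shmt2 moved from place 8 to place 2 and Phgdh from place 5 to place 9. Apart from Atf4, which lay above all others in every tumour, the ranges of neighbours in LPS overlapped.

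Within the tumours no member was shown to change with age or with Atf4. Over the 13280 rows tested for a slope against age in months, limma called none (0%), and 228 had an unadjusted p below 0.05, none of them a member. The slopes of the 9 members tested lay between -0.21 per month for Trib3 and 0.06 for Atf4 and Atf5, on the log2 scale. Phgdh did not enter, since it reached 1 FPKM in 3 of the 8 tumours. Of 14 relations tested over the 8 tumours, none passed after adjustment. Atf4 and Atf5 had r = 0.72 (exact permutation p = 0.0456, adjusted p = 0.319; rho = 0.69, exact p = 0.0694), and r = 0.58 without LPS 4 and LPS 8, the libraries farthest from the median of Atf4. Atf4 and Asns had r = 0.51 (exact permutation p = 0.197, adjusted p = 0.593; rho = 0.52, exact p = 0.197), and r = 0.12 without the same libraries. Mthfd2 and the proliferation marker Mki67 had r = 0.74 (exact permutation p = 0.0278, adjusted p = 0.319; rho = 0.71, exact p = 0.0576), and r = 0.27 without LPS 1 and LPS 7, so that value rests on those libraries.

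The genes most like Atf4 across the tumours were Gm15382, Myo9b and Pter (r = 0.92, 0.92 and 0.91), and those most like Asns were Zfp808, Gm8338 and Kars (r = 0.95, 0.95 and 0.94), again as a description with no test. Kars, the lysyl-tRNA synthetase gene, ran from 20.6 FPKM in LPS 8, the tumour lowest in Asns, to 45.0 FPKM in LPS 2, the tumour highest in Asns. It was not called between the groups, at 31.0 ± 2.98 FPKM in WAT and 31.3 ± 7.51 FPKM in LPS (SD over 4 and 8 libraries; limma adjusted p = 0.953).

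Among other genes that ATF4 is known to switch on, or that work with it, more were called lower than higher in the tumours. Of 22 fixed genes 19 were tested, 11 were lower and 2 higher, with a median log2 difference of -1.03 against -0.05 over all rows. Of those lower, Cth, Stc2 and Aldh1l2 met the filter on low values through WAT, where they are high. The median of -1.03 includes these genes, so it is in part a product of the filter. With at least 1 FPKM required in all 12 libraries, 6 were lower and 2 higher. The counts of this and the following lists stand beside the 27.0% of all rows called lower and 18.9% called higher. Gpt2, the mitochondrial alanine aminotransferase, fell from 39.5 ± 14.9 to 3.09 ± 1.04 FPKM and Vldlr, a lipoprotein receptor, from 22.6 ± 4.36 to 2.37 ± 2.74 FPKM (SD over 4 and 8 libraries; limma adjusted p = 4.61e-07 and 0.000210). LPS 3 held the most Vldlr among the tumours, 7.98 FPKM. Pck2, the mitochondrial enzyme that feeds phosphoenolpyruvate to glycolytic intermediates and so to serine, rose from 8.72 ± 1.86 to 22.5 ± 6.36 FPKM (adjusted p = 0.000486), and Atf3, another stress factor, from 1.50 ± 0.235 to 4.36 ± 1.80 FPKM (adjusted p = 0.0149). Chac1, Fgf21 and Gdf15, all induced by the stress response, lay below the filter at means of 0.817, 0.0411 and 0.681 FPKM in LPS. The higher count was 4 with array quality weights.

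Amino acid transporters divided. Of 13 fixed genes 11 were tested, 6 were lower and 3 higher, with a median log2 difference of -0.60, and Slc7a5 was not analysed here. Slc1a5, the main glutamine carrier of many cells, stood at 450, 406, 402 and 430 FPKM across WAT 1 to WAT 4 and from 4.95 to 18.5 FPKM in LPS, a log2 difference of -5.29 ± 0.32 (SE; limma adjusted p = 2.99e-08). Slc1a3, a carrier of glutamate and aspartate, fell from 51.6 ± 22.9 to 0.552 ± 0.815 FPKM (SD over 4 and 8 libraries). LPS 5 held 2.46 FPKM of it against at most 0.821 FPKM in the other tumours. Slc1a3 thus met the filter on low values through WAT, where it is high. No test is given for it, though it counts among the 6 lower. In the other direction Slc1a4, a carrier of serine and alanine, rose from 1.66 ± 0.275 to 9.41 ± 4.33 FPKM (adjusted p = 7.31e-05) and Slc6a9, a glycine carrier, from 2.34 ± 0.954 to 7.66 ± 3.35 FPKM (adjusted p = 0.00229).

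Of 17 tested genes of folate and glycine metabolism (20 fixed), 7 were lower and 1 higher, with a median log2 difference of -0.24. Aldh1l2, among the lower, met the filter on low values through WAT, where it is high. The higher count was 2 without LPS 1 and 3 after quantile normalization. Aldh1l1, which burns folate-bound carbon units in the cytosol, fell from 54.4 ± 15.3 to 2.28 ± 1.53 FPKM and Gcsh, a part of the glycine cleavage system, from 58.9 ± 10.4 to 11.1 ± 3.53 FPKM (SD over 4 and 8 libraries; limma adjusted p = 1.95e-07 and 1.48e-06). Tyms, the thymidylate synthase that spends a folate-bound carbon unit on DNA synthesis, rose from 9.86 ± 2.21 to 20.4 ± 6.28 FPKM (adjusted p = 0.00396). The 5 cell cycle markers read from single rows gave sums of 14.9 to 45.3 FPKM across WAT and 34.3 to 182 FPKM across LPS, and their part in the Tyms difference was not tested.

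Among 15 tested genes of aspartate, glutamate and glutamine metabolism (16 fixed), 5 were lower and 2 higher, near the shares of 27.0% and 18.9% over all rows, with a median log2 difference of -0.32. Aspg, among the lower, met the filter on low values through WAT, where it is high. Gpt, the cytosolic alanine aminotransferase, fell from 77.1 ± 21.2 to 1.29 ± 0.215 FPKM (SD over 4 and 8 libraries; limma adjusted p = 1.22e-10), and Gpt2, above, had the next largest fall on the log2(FPKM + 1) scale. Got1, which interconverts aspartate and glutamate, rose from 9.44 ± 3.16 to 22.2 ± 8.48 FPKM (adjusted p = 0.00476), with LPS 1 at 11.7 FPKM inside the WAT range.

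Of 15 tested genes for eIF2, its kinases and phosphatases and its exchange factor eIF2B (16 fixed), 4 were lower and 2 higher, again near the shares over all rows, with a median log2 difference of 0.03. The higher count was 1 without WAT 1, WAT 2 or WAT 3. Ppp1r15b, a subunit of the phosphatase that resets eIF2, fell from 40.4 ± 4.92 to 25.9 ± 3.70 FPKM and Eif2b4 from 12.5 ± 0.569 to 8.33 ± 0.884 FPKM (SD over 4 and 8 libraries; limma adjusted p = 0.00148 and 0.000842). Eif2ak2, the kinase that senses double-stranded RNA, rose from 13.7 ± 3.22 to 25.4 ± 7.12 FPKM and Eif2b2 from 18.6 ± 5.21 to 38.7 ± 19.0 FPKM (adjusted p = 0.00828 and 0.0255). Eif2ak3, which encodes the kinase PERK of the endoplasmic reticulum, and Eif2ak4, which encodes the amino acid sensor GCN2, did not pass, at 10.7 ± 0.890 and 8.70 ± 2.25 FPKM and at 7.05 ± 0.941 and 9.71 ± 3.51 FPKM. They were chosen after their values were seen.

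Of 20 cytosolic aminoacyl-tRNA synthetase genes 15 were not called, 3 were lower and 2 higher, with a median log2 difference of -0.02. Gars fell from 59.8 ± 4.37 to 26.9 ± 4.48 FPKM and Vars from 41.4 ± 1.73 to 30.4 ± 4.36 FPKM, while Yars rose from 19.1 ± 1.86 to 35.8 ± 8.51 FPKM and Nars from 29.9 ± 1.52 to 37.2 ± 4.56 FPKM (SD over 4 and 8 libraries; limma adjusted p = 7.89e-06, 0.00691, 0.00113 and 0.0427). The higher count was 1 without any one of WAT 1 to WAT 4, LPS 1 to LPS 4 or LPS 6, and the lower count was 1 after quantile normalization. Of the ATF6 and XBP1 arms of the unfolded protein response, 16 of 18 genes were tested, 3 were higher and 3 lower, with a median log2 difference of 0.16. Sdf2l1 rose from 11.4 ± 1.88 to 20.5 ± 3.80 FPKM (adjusted p = 0.00110) and Hyou1, a chaperone, passed narrowly (adjusted p = 0.0495), whereas Herpud1 and Dnajb9, which serve the removal of misfolded proteins, fell, the former from 36.1 ± 4.55 to 24.3 ± 7.64 FPKM and the latter from 15.3 ± 3.43 to 10.1 ± 1.60 FPKM (adjusted p = 0.0431 and 0.0121). These small counts moved with single libraries: 1 was higher without any one of WAT 1 to WAT 4, LPS 1, LPS 3 or LPS 6, 6 were higher without LPS 5 and 8 after quantile normalization, and the lower count was 1 without WAT 1 or WAT 4 and 0 without WAT 2 or WAT 3.

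**Figure D5:**
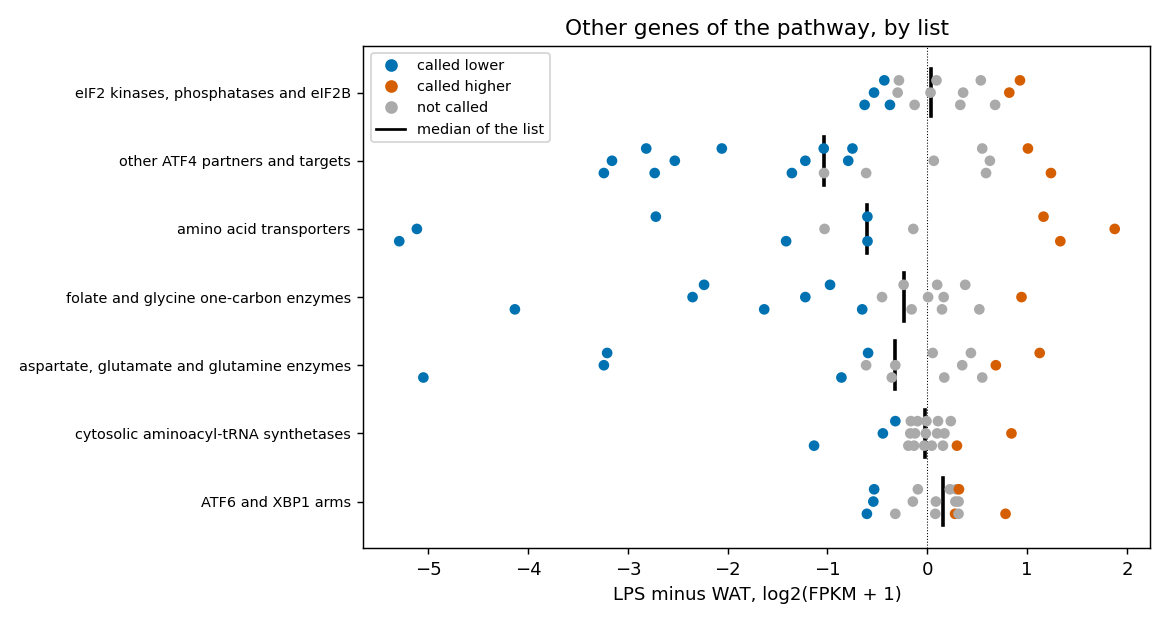
Difference between LPS and WAT in log2(FPKM + 1) for each tested gene of 7 lists (points, coloured by the limma call), with each list's median as a bar. The ATF4 partners and targets have the lowest median, -1.03, and the aminoacyl-tRNA synthetases gather around 0. That median includes Cth, Stc2 and Aldh1l2, which met the filter on low values through WAT, where they are high.

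The letters TGATGNAA were found in promoters of 7 of 18 matched genes among the ATF4 partners and targets (Atf3, Chac1, Fgf21, Nupr1, Pck2, Pycr1 and Vldlr) and in 5 of 12 aminoacyl-tRNA synthetase genes (Aars, Gars, Iars, Tars and Yars), against 4.51% of all genes. Genes with these letters went both ways in the tumours: Asns, Trib3, Vldlr, Nupr1 and Gars were lower, Pck2, Atf3 and Yars higher, and Pycr1, Aars, Iars and Tars were not called. Of the other lists, 2 of 9 transporters (Slc1a4, higher, and Slc7a11, lower), 2 of 11 aspartate, glutamate and glutamine genes (Got1, higher, and Pycr1), 1 of 12 eIF2 genes (Eif2s3x, not called), 1 of 15 genes of the ATF6 and XBP1 arms (Herpud1, lower) and 0 of 15 folate and glycine genes held a match.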

How the data were processed

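The authors deposited 1 table of FPKM values, 1 column per library. Per the labels' protocols, stranded libraries were made after removal of ribosomal RNA. The submitters' processing notes name build GRCm38 and the tools Cuffdiff 2.2.1, Cufflinks 2.2.1, TopHat2 2.1.0, Bowtie2 and Trimmomatic, without role or order. How libraries were scaled against each other is not stated. The labels call the libraries biological replicates.

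Rows that reached 1 FPKM in 4 or more of 12 libraries were fitted with limma 3.58.1 (R 4.3.3) on log2(FPKM + 1), with trend and robust empirical Bayes, two-sided, with Benjamini-Hochberg adjustment over all 14821 rows at 0.05. The pseudocount shrinks differences of low genes. The age slope used the 8 LPS libraries and rows that reached 1 FPKM in 4 or more of them. On simulated data of 14821 rows the comparison of LPS and WAT found 94% of genes given a log2 change of -2, 92% at 2, 72% at -1 and 64% at 1. It made 9 false calls among the rows left unchanged. Each change was given to 50 genes, and both groups were drawn with the same SD per gene. The simulation thus does not cover genes whose spread differs between the groups, such as Phgdh (coefficient of variation 8.11% in WAT, 129% in LPS). Changes were given to well-expressed genes only, so these rates do not cover genes with low values, such as Trib3. Relations used all 40320 pairings of the 8 tumours. For a repeated name the row with the highest mean was used, and list genes in joined rows (828 rows in all) were left out. Table starts are given counted from 1. Fragment worth was the 5th percentile of non-zero FPKM times length over 916 single-transcript genes longer than 2000 bases in GENCODE M21.

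Members and lists were chosen with earlier results of these data known. Named genes are the 10 members, the 2 called genes of each list with the largest difference each way, the paralogues of Shmt2 and Mthfd2, and the 3 rows most like Atf4, Asns and Phgdh. Some genes that were seen first are marked so. Ndufa4l2, Mars and the genes with low values or a promoter match were named after their values were seen. A gene that this rule names in the list of aspartate, glutamate and glutamine enzymes is not reported here.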

Additional observations from a re-analysis of the deposited data

How the results depend on the processing

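Differences between LPS and WAT were recomputed under other pseudocounts, filters, scalings, test settings and without each library in turn. Age slopes and relations were recomputed with a pseudocount of 0.1, after median ratio scaling and without each LPS library where the filter allowed, and the paralogue ratios with 0.01 or 1 FPKM added and without each library. For single genes, slopes and relations 428 such values kept their direction and their side of the threshold, 5 fell short of it (4 of Psat1, 1 of Trib3) and 1 passed it (Ddit3), as given with those genes. The 2 paralogue ratios kept theirs under these. With at least 1 FPKM in all 12 libraries, a filter that drops Phgdh and Trib3, 2435 rows were lower in LPS instead of 4007, 6 ATF4 partners and targets and 3 transporters were lower, and 1 gene of the ATF6 and XBP1 arms was higher. With array quality weights 2 members were higher (Ddit3 beside Shmt2), as were 4 ATF4 partners and targets, 2 folate and glycine genes and 8 genes of the ATF6 and XBP1 arms. Quantile normalization gave 3 higher folate and glycine genes, 1 lower synthetase and 8 higher genes of the ATF6 and XBP1 arms. With no filter on low values, and with plain empirical Bayes, 1 synthetase and 1 gene of the ATF6 and XBP1 arms were higher. The exact permutation test per row called 1 gene of the eIF2 list and 1 ATF4 partner or target higher. The cause of these shifts was not tested. Without each library in turn, the higher counts ran from 1 to 3 for the eIF2 list, from 1 to 2 for folate and glycine genes, from 1 to 2 for synthetases and from 1 to 6 for the ATF6 and XBP1 arms, whose lower count ran from 0 to 4.

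Replicate numbers 1 to 4 occur in both groups, but the labels name no shared animal. Same-numbered libraries deviated together with correlations of -0.02, 0.02, 0.09 and 0.03, and numbers 3 and 4 matched best with their own. With the number as a replicate block, 2664 rows were higher and 3375 lower, 4 ATF4 partners and targets were higher, and 1 gene of the ATF6 and XBP1 arms was called each way. Depth limits the lowest values, since 1 fragment on a 2 kb transcript was worth up to 0.0448 FPKM.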

Other observations

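LPS 6 and LPS 7, the tumours highest in Ddit3, were also highest in Ddit4, a stress-induced brake on mTORC1: Ddit4 measured 125 and 129 FPKM there and 92.1 FPKM in LPS 4, while the other 5 tumours ranged from 11.5 to 31.1 FPKM, against 24.2 to 32.8 FPKM in WAT. Ppp1r15a, which encodes the stress-induced subunit GADD34 of the eIF2 phosphatase, measured 42.7 FPKM in LPS 6 but no more than 10.4 FPKM in any other tumour, against 4.07 to 6.66 FPKM in WAT. These genes were picked after their values were seen, and neither was called between the groups (limma adjusted p = 0.429 and 0.381).

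Cth, the last enzyme of cysteine synthesis from serine and homocysteine, measured 5.73 to 6.64 FPKM in WAT and at most 0.606 FPKM in LPS, with LPS 4 listed at 0. Aspg, an asparaginase, measured 5.35 to 11.5 FPKM in WAT and at most 0.0354 FPKM in LPS, with LPS 1, LPS 2 and LPS 3 listed at 0. Glul, the glutamine synthetase gene, lies in a joined row that went from 395 ± 104 to 28.2 ± 12.8 FPKM (SD, n = 4 and n = 8). These genes too were chosen after their values were seen. Cth and Aspg reached 1 FPKM in WAT alone, so they met the filter on low values through the group where they are high. No test is given for them, though both count as lower in their lists above.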
